A study of Homo sapiens with 12 samples.

Results

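AGS cells kept for 24 h with mycophenolic acid (MPA) were compared with AGS cells that had not received the drug. The comparison was defined by the array labels alone and uses 6 of the 12 arrays of the series, 2 labelled 24 h and 4 labelled 0 h, across 10469 genes. AGS is an established epithelial cell line from a human gastric adenocarcinoma. In the 24 h group MPA was present at 2 µg/ml, and the 0 h group, which is the control, had 0 h of MPA. The remaining 6 arrays, 2 each after 12, 48 and 72 h at the same dose, entered the fit of the spread and the direct comparisons between treated times. Untreated cells kept in culture for 24 h were not among the samples, so the effect of the drug and that of time in culture cannot be told apart. Whether arrays of a group hold RNA of separate cultures is not stated in the labels, and the p-values therefore rest on a spread between arrays that may be technical. The vehicle of the array samples is not stated either.

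MPA is the active form of an immunosuppressive drug. It inhibits inosine monophosphate dehydrogenase (IMPDH), the enzyme that commits inosine monophosphate to guanine nucleotide synthesis, and cells that divide rapidly depend on that route. Guanine nucleotides feed the synthesis of ribosomal RNA and DNA, serve G proteins and translation factors, and are the starting material of tetrahydrobiopterin. Shortage of guanine nucleotides is known to disturb the nucleolus and to stabilise p53 in cultured cells.

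The arrays were Illumina HumanHT-12 bead arrays with 48803 probes. Levels are log2 intensities after background correction and quantile normalization, in which an intensity not above background lies near 5. A probe counted as detected on an array when its detection p was under 0.01, and detected probes numbered 14077 to 14893 at 0 h and 15192 to 15764 at 24 h. The standard deviation of the log2 differences between 2 arrays was 0.25 to 0.32 over the 6 pairs of 0 h arrays, 0.26 for the 24 h pair, and 0.67 to 0.69 over the 8 pairs of a 0 h and a 24 h array. Of 7 epithelial markers, 6 were detected on some array and 5 on all 0 h arrays, with a summed intensity of 49639 to 51178 at 0 h and 52368 to 58602 at 24 h. Of 8 fibroblast markers 1, COL1A1, was detected, of 8 leukocyte markers 2 and of 6 endothelial markers 1. The summed level was at most 105 for the fibroblast list, 60.1 for the leukocyte list and 61.2 for the endothelial list.

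At 24 h, 4359 of the 10469 genes (41.6%) passed an adjusted p of 0.05 in limma's moderated test, and are described as called. Of these, 2132 (20.4%) rose and 2227 (21.3%) fell. The counts of rises and falls given below for gene lists stand against these shares. A call with a change of at least 2-fold was reached upwards by 596 genes (5.69%) and downwards by 400 (3.82%), and one of at least 4-fold by 113 (1.08%) and 29 (0.277%). The median log2 fold change of all genes was -0.03, with quartiles at -0.35 and 0.30. Among the 596 genes, 153 were detected on no 0 h array, and among the 400, 56 were detected on no 24 h array. Their folds are given as lower bounds, taking for the dimmer group the lowest signal that was detected. Both 24 h arrays lay above all 0 h arrays in 2875 genes (27.5%) and below them in 3176 (30.3%). The count of called genes depended on each 24 h array: it was 2905 without 24 h replicate 1 and 2927 without 24 h replicate 2.

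**Figure D1:**
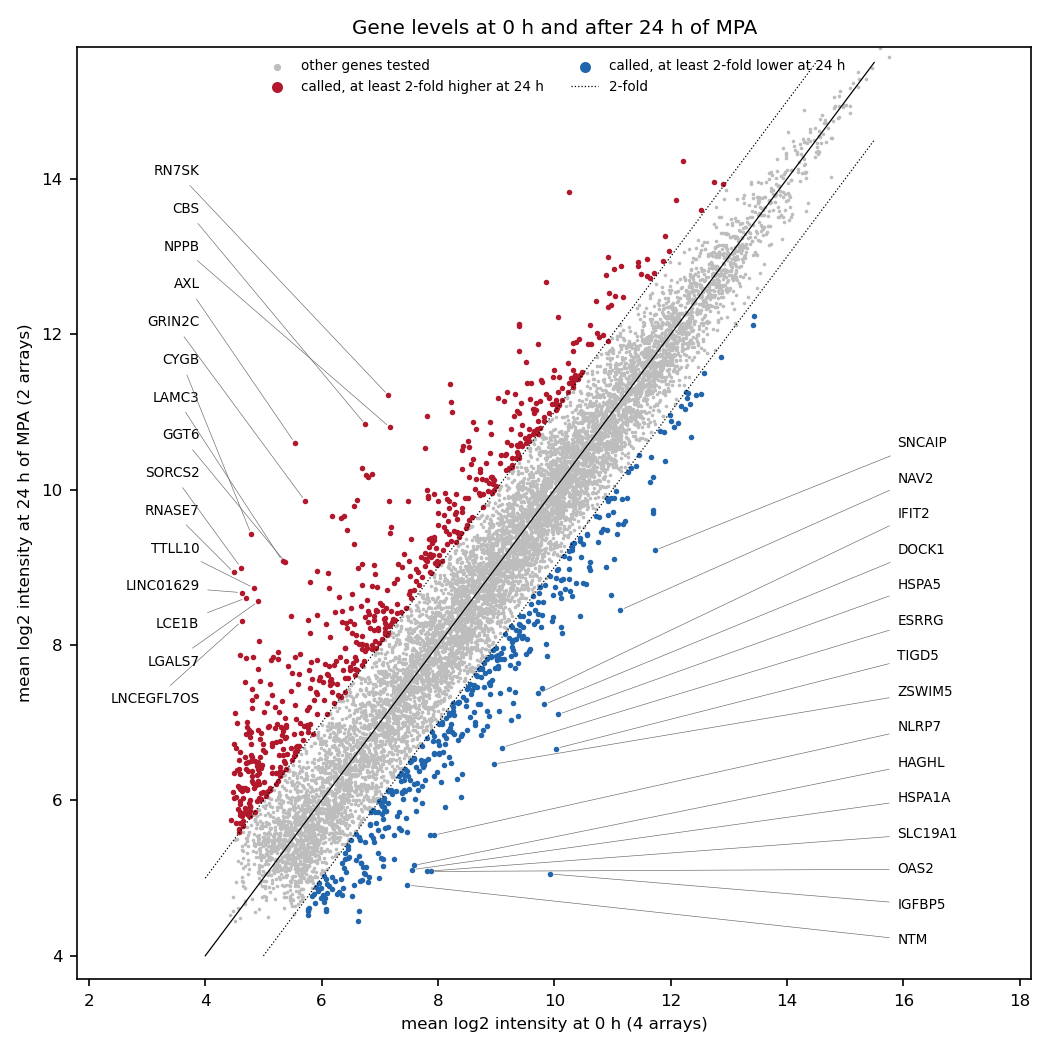
Mean log2 intensity of each of the 10469 genes at 0 h (horizontal axis, 4 arrays) and after 24 h of MPA (vertical axis, 2 arrays), with equality as a solid line and 2-fold changes as dotted lines. The 596 genes at least 2-fold higher are red, the 400 at least 2-fold lower are blue, and the 15 largest changes each way are named; IGFBP5 lies farthest below the line and AXL farthest above it.

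The 15 largest rises were those of AXL, CYGB, RNASE7, SORCS2, GRIN2C, CBS, RN7SK, LINC01629, LCE1B, TTLL10, LAMC3, GGT6, LNCEGFL7OS, LGALS7 and NPPB. AXL, a receptor tyrosine kinase whose ligand is GAS6, read 5.54, 5.97, 5.86 and 4.80 on the 0 h arrays and 10.56 and 10.65 on the 24 h arrays. It was detected on 1 of the 4 arrays at 0 h and on both at 24 h, and rose by 5.06 ± 0.24 (SE) on the log2 scale (adjusted p = 1.7e-08). With the lowest detected signal of each array as a floor at 0 h, the rise was 28.7-fold. Its ligand moved the other way: GAS6 read 10.37, 10.40, 10.54 and 10.49 at 0 h and 8.54 and 8.20 at 24 h, and fell by 2.08 ± 0.12 (adjusted p = 6e-08). In neither gene did the groups overlap. The other receptors that bind GAS6, MERTK and TYRO3, also fell, by 0.92 ± 0.12 and 0.53 ± 0.12 (adjusted p = 5.9e-05 and 0.0045).

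Of the 15 genes, 9 were detected on no 0 h array. CYGB, a globin that scavenges nitric oxide, read 4.79, 4.72, 4.78 and 4.87 at 0 h and 9.31 and 9.54 at 24 h, at least 13.4-fold higher (adjusted p = 1.3e-09). RNASE7, an antimicrobial ribonuclease of skin and other barrier epithelia, read 4.44, 4.46, 4.64 and 4.42 at 0 h against 8.96 and 8.91 at 24 h. The 0 h values of both genes lie at the background level and the 24 h values far above it. RNASE7 was at least 9.57-fold higher (adjusted p = 7.9e-10), SORCS2, a sortilin-family receptor, at least 9.98-fold (adjusted p = 2.1e-08), and GGT6, a member of the gamma-glutamyltransferase family, at least 10.5-fold (adjusted p = 7.9e-10). LCE1B, a protein of the late cornified envelope of skin, was at least 7.61-fold higher (adjusted p = 1e-08) and LGALS7, the keratinocyte galectin-7, at least 7.38-fold (adjusted p = 8.7e-08). The signal of LGALS7 cannot be told from those of its near-identical copy LGALS7B. TTLL10, a member of the tubulin tyrosine ligase-like family, and the non-coding RNAs LINC01629 and LNCEGFL7OS were higher by at least 8.32-, 7.98- and 6.19-fold.

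CBS and NPPB were already detected on all 0 h arrays. CBS, which condenses homocysteine with serine in the transsulfuration pathway, read 6.86, 6.81, 6.82 and 6.52 at 0 h and 10.94 and 10.74 at 24 h, a rise of 4.09 ± 0.15 (17-fold, adjusted p = 2.3e-09). The genome also holds a near-identical copy of CBS, which the probe may read. NPPB, the precursor of brain natriuretic peptide, read 6.64, 6.88, 7.89 and 7.29 at 0 h and 10.78 and 10.82 at 24 h and rose 12.4-fold (adjusted p = 5.1e-07); its 0 h arrays spread over more than 1 log2 unit, but the groups were far apart. GRIN2C, an NMDA receptor subunit, and LAMC3, a laminin chain, were detected on 2 and 1 of the 0 h arrays and rose (adjusted p = 1.2e-08 and 5.7e-08), by 16.1- and 10.1-fold with the same floor.

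The 15 largest falls were those of IGFBP5, TIGD5, HSPA5, OAS2, SLC19A1, NAV2, DOCK1, NTM, SNCAIP, ZSWIM5, HSPA1A, HAGHL, ESRRG, NLRP7 and IFIT2. IGFBP5, a secreted protein that binds insulin-like growth factors, read 10.26, 9.89, 9.60 and 9.92 at 0 h and 4.97 and 5.14 at 24 h. Neither 24 h array detected it, and it was at least 22.1-fold lower (adjusted p = 1.6e-09). TIGD5, a gene derived from a transposon of the pogo family, read 9.91, 10.04, 9.98 and 10.16 at 0 h and 6.52 and 6.82 at 24 h and fell by 3.36 ± 0.14, 10.2-fold (adjusted p = 7.4e-09). Both genes were well above background in untreated cells and TIGD5 stayed detected at 24 h.

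SLC19A1, the carrier that brings reduced folates and methotrexate into cells, read 7.64, 7.77, 8.04 and 7.78 at 0 h and 5.51 and 4.67 at 24 h. It fell by 2.72 ± 0.22 (adjusted p = 1.1e-06) and was detected on 1 of the 24 h arrays. DOCK1, an exchange factor that activates the GTPase Rac, read 9.70, 9.82, 9.87 and 9.93 at 0 h and 7.24 and 7.24 at 24 h and fell 6.03-fold (adjusted p = 5.7e-08). NAV2, a cytoskeletal protein of neurite outgrowth, SNCAIP, which binds alpha-synuclein, ZSWIM5, a zinc finger protein, and ESRRG, an orphan nuclear receptor, fell 6.43-, 5.71-, 5.62- and 5.33-fold. NTM, a neural adhesion molecule, and HAGHL, a relative of a glyoxalase, were at least 4.06- and 4.38-fold lower, as neither was detected at 24 h. NLRP7, an inflammasome-family gene, fell (adjusted p = 4.5e-07) and was detected on 1 of the 24 h arrays, with a fold of 4.64 when the floor was set. None of the 15 had a 24 h value within its range at 0 h, which the choice of the genes required.

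The enzymes that MPA acts on moved in opposite directions and by less than 2-fold. IMPDH2, the isoform of proliferating cells, read 12.19, 12.24, 12.58 and 12.27 at 0 h and 13.07 and 13.11 at 24 h and rose by 0.77 ± 0.12 (adjusted p = 0.00034). IMPDH1, the isoform that most tissues express, read 10.08, 10.29, 10.53 and 10.43 at 0 h and 9.74 and 9.98 at 24 h and fell by 0.47 ± 0.14 (adjusted p = 0.019). The groups did not overlap in either isoform, but the call of IMPDH1 was lost without 24 h replicate 1 (log2 fold change -0.35, adjusted p = 0.19). In the list of 9 measured genes of guanine nucleotide synthesis and salvage, 3 rose and 3 fell, with a median of 0.10. Among all genes 20.4% rose and 21.3% fell. PNP, which frees guanine and hypoxanthine from their nucleosides, rose by 0.76 ± 0.14 (adjusted p = 0.0011). HPRT1, which salvages the bases, had a log2 fold change of -0.20 (adjusted p = 0.3). A dimmer probe of HPRT1 read -0.36 (adjusted p over probes = 0.028), and its fall was called on the mean of its probes (-0.28, adjusted p = 0.045). No fall was called without 24 h replicate 1, and 1 of the 3 without 0 h replicate 3.

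Among 11 genes of de novo purine synthesis, adenylate formation and salvage, 3 rose and 3 fell, beside 20.4% and 21.3% of all genes. ADSS1, an adenylosuccinate synthase that uses GTP to make the precursor of AMP, read 7.20, 7.17, 7.16 and 7.14 at 0 h and 9.45 and 9.44 at 24 h and rose 4.85-fold (adjusted p = 2.1e-08). Its 0 h arrays lay within 0.1 log2 of each other. A dimmer probe of ADSS1 had a log2 fold change of -0.54 (adjusted p over probes = 0.088), so the rise was read by 1 of 2 probes. ADK, adenosine kinase, fell by 0.78 ± 0.13, and PFAS and ATIC, enzymes of the de novo route, fell by 0.58 ± 0.12 and 0.50 ± 0.12 (adjusted p = 0.00048, 0.0022 and 0.0038). A dimmer probe of ADK had a log2 fold change of -0.06 (adjusted p over probes = 0.86). The call of ATIC was lost without 24 h replicate 1 (adjusted p = 0.056). PRPS1, which makes the ribose phosphate donor, rose by 0.63 ± 0.14 (adjusted p = 0.0033).

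In the pyrimidine and deoxynucleotide list of 14 genes, 5 rose and 4 fell, beside 20.4% and 21.3% of all genes. The genes that rose most act on deoxynucleotides: RRM2B, the p53-induced subunit of ribonucleotide reductase, by 1.17 ± 0.20, RRM2, the S-phase subunit, by 0.94 ± 0.20, and TK1, thymidine kinase, by 0.86 ± 0.11 (adjusted p = 0.00064, 0.0025 and 7.8e-05). DHODH and CAD of uridylate synthesis fell by 0.65 ± 0.15 and 0.51 ± 0.13 (adjusted p = 0.0046 and 0.0059). Without 24 h replicate 1, 3 rose and 2 fell, and without 24 h replicate 2, 3 rose; CAD was among the calls lost without 24 h replicate 1 (adjusted p = 0.07). In the folate list of 10 genes, 2 rose and 4 fell, among them SLC19A1 and the mitochondrial MTHFD1L, which fell by 0.81 ± 0.11 (adjusted p = 6.5e-05). Without 24 h replicate 1, 2 of the 4 falls were called, and without 24 h replicate 2, 1 of the 2 rises.

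Of 11 genes of the methionine cycle and transsulfuration, 3 rose and 1 fell, beside 20.4% and 21.3% of all genes. Beside CBS these were GSS, glutathione synthetase, which rose by 1.08 ± 0.17 (adjusted p = 0.00034), and MAT2B, a subunit of methionine adenosyltransferase, which rose by 0.52 ± 0.12 (adjusted p = 0.0032). The call of MAT2B was lost with arrays scaled on their medians (log2 fold change 0.40, adjusted p = 0.068) and on the mean of its 3 probes (0.19, adjusted p = 0.39), of which the dimmest read -0.62 (adjusted p over probes = 0.066). CTH, which acts after CBS, read 7.21, 7.55, 7.35 and 7.59 at 0 h and 6.72 and 6.80 at 24 h and fell by 0.66 ± 0.17 (adjusted p = 0.0082); without 24 h replicate 1 the adjusted p was 0.065. Of 10 genes of tetrahydrobiopterin and nitric oxide, 5 rose and 1 fell. GCH1, which makes tetrahydrobiopterin from GTP, read 9.07, 9.12, 8.99 and 9.08 at 0 h and 10.11 and 9.93 at 24 h, and its feedback protein GCHFR read 9.25, 9.47, 9.37 and 9.33 against 10.33 and 10.65. They rose by 0.96 ± 0.10 and 1.14 ± 0.12 (adjusted p = 1.3e-05 and 9.7e-06), with no overlap of the groups. NOS3, endothelial nitric oxide synthase, which needs tetrahydrobiopterin, was not detected at 0 h and lay at least 1.38-fold higher (adjusted p = 2.7e-06).

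The p53 target genes rose as a group. Of 23 measured genes in the list, 19 rose, none fell and 14 rose at least 2-fold, and the median log2 fold change was 1.03. Among all genes 20.4% rose and the median was -0.03. TP53I3, a quinone oxidoreductase induced by p53, read 10.21, 10.11, 10.46 and 10.27 at 0 h and 13.77 and 13.91 at 24 h, a rise of 3.58 ± 0.12 (11.9-fold, adjusted p = 1.4e-09). GDF15, a secreted cytokine of the TGF-beta family, read 12.16, 12.24, 12.23 and 12.19 at 0 h and 14.19 and 14.27 at 24 h and rose 4.05-fold (adjusted p = 4.4e-08). Both genes were already bright in untreated cells and lay close to the top of the intensity range at 24 h.

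TP53INP1, a stress protein of apoptosis and autophagy, and CYFIP2, a subunit of the actin regulator WAVE, rose 4.35- and 3.38-fold (adjusted p = 1e-07 and 5.9e-07). The feedback inhibitors of p53 rose too. MDM2, the ubiquitin ligase that degrades p53, read 6.66, 6.28, 6.21 and 6.47 at 0 h and 7.95 and 7.97 at 24 h and rose by 1.55 ± 0.15 (adjusted p = 4.8e-06), and PPM1D, a phosphatase that turns off p53 signaling, rose by 1.70 ± 0.16 (adjusted p = 5.2e-06). CDKN1A, the cyclin-dependent kinase inhibitor p21, read 12.67, 12.76, 12.96 and 13.23 at 0 h and 13.90 and 13.97 at 24 h and rose by 1.03 ± 0.15 (adjusted p = 0.00019). GADD45A, which acts in growth arrest, rose by 1.56 ± 0.11 (adjusted p = 5.4e-07). The 4 members that were not called were BAX, CCNG1, ZMAT3 and DDB2, with log2 fold changes of 0.02, 0.04, 0.30 and 0.62 (adjusted p = 0.96, 0.84, 0.096 and 0.08). ZMAT3 was called on the mean of its probes (0.43, adjusted p = 0.011) and with the authors' values (0.31, adjusted p = 0.046). DDB2 was called without 0 h replicate 3 (0.82, adjusted p = 0.011). In other settings both stayed uncalled or varied.

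Receptors of apoptosis were among the genes that rose. Among 16 measured death receptor and caspase genes 7 rose and 1 fell, with a median of 0.32; with arrays scaled on their medians 4 rose. FAS was not detected at 0 h, read 6.83 and 7.13 at 24 h and lay at least 2.47-fold higher (adjusted p = 7.2e-06). TNFRSF10A and TNFRSF10B, the receptors of the death ligand TRAIL, were both detected on all 6 arrays. TNFRSF10A read 9.23, 9.36, 9.52 and 9.42 at 0 h against 10.59 and 10.55 at 24 h, and TNFRSF10B 11.39, 11.39, 11.52 and 11.53 against 12.35 and 12.41. They rose by 1.19 ± 0.11 and 0.92 ± 0.13 (adjusted p = 4.4e-06 and 0.00013), and the groups of neither overlapped. APAF1, the core of the apoptosome, rose by 1.11 ± 0.13 (adjusted p = 2e-05). TNFRSF1A, the TNF receptor, was the member that fell, by 0.35 ± 0.13 (adjusted p = 0.0463), and its call was lost without either 24 h array (adjusted p = 0.11 and 0.24) and without 0 h replicate 2, 3 or 4 (0.061, 0.087 and 0.099).

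Of 13 measured members of the BCL2 family 5 rose and 3 fell, beside 20.4% and 21.3% of all genes. BIK and PMAIP1, BH3-only proteins that promote cell death, rose by 1.25 ± 0.13 and 1.03 ± 0.19 (adjusted p = 7.7e-06 and 0.00098), and BCL2L1, which encodes the survival protein BCL-XL, rose by 0.64 ± 0.13 (adjusted p = 0.0019). BOK, BAD and BID, which also promote cell death, fell by 0.97 ± 0.13, 0.70 ± 0.16 and 0.48 ± 0.12 (adjusted p = 8.4e-05, 0.0033 and 0.0058), the last not called without 24 h replicate 2 (adjusted p = 0.06). A probe of BID of nearly the same brightness had a log2 fold change of 0.16 (adjusted p over probes = 0.56), and the mean of its probes was not called (adjusted p = 0.40). MCL1, a survival protein of short half-life, had a log2 fold change of 0.13 (adjusted p = 0.39).

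**Figure D2:**
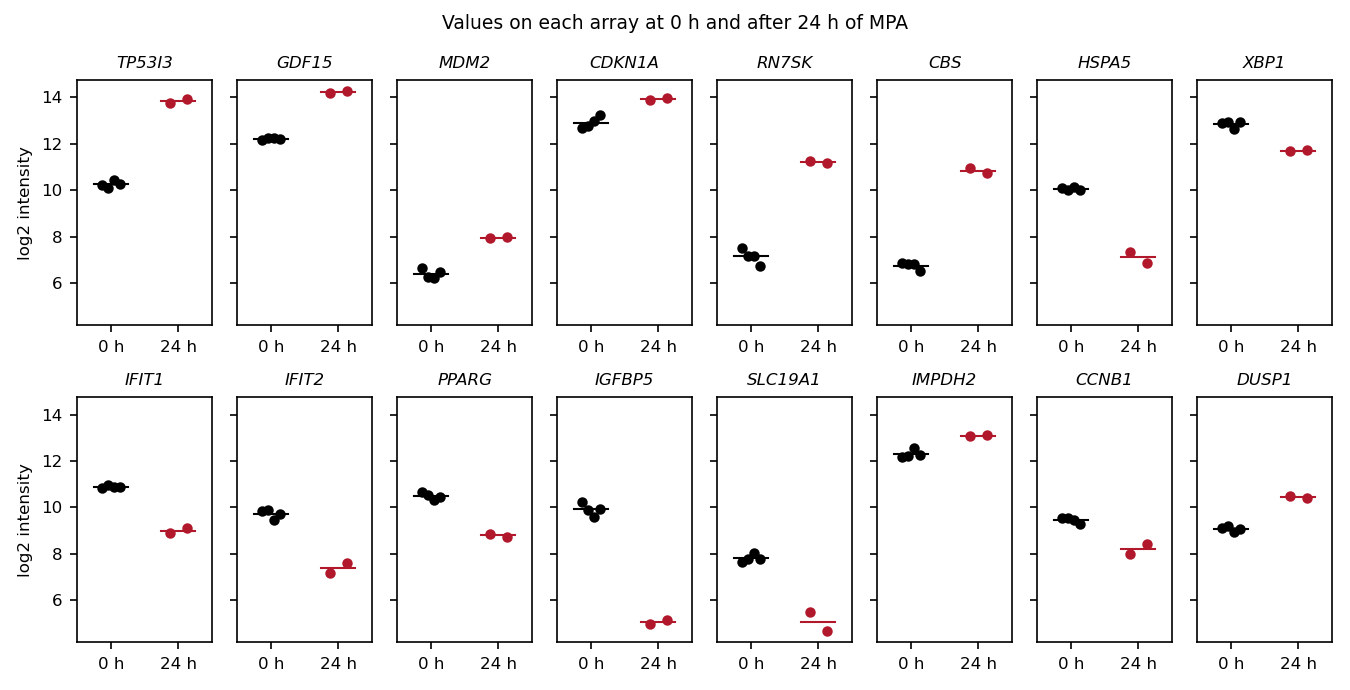
Log2 intensity of 16 genes on each array (points) at 0 h (black, 4 arrays) and after 24 h of MPA (red, 2 arrays), with group means as lines and one vertical scale. The 24 h points of all 16 genes lie outside the range of the 0 h points; TP53I3 rises from near 10 to near 14, and IGFBP5 falls to the background level near 5.

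Most measured genes of mitosis fell. Of 35 members of the list 22 fell and 2 rose, with a median of -0.42. Among all genes 21.3% fell and 20.4% rose. CCNB1, the mitotic cyclin B1, read 9.56, 9.54, 9.46 and 9.30 at 0 h and 8.01 and 8.45 at 24 h and fell by 1.24 ± 0.14 (adjusted p = 1.5e-05). PLK1, a kinase of mitotic entry, BUB1, a kinase of the spindle checkpoint, and CDC20, which activates the anaphase ubiquitin ligase, fell by 1.07 ± 0.13, 0.95 ± 0.12 and 0.87 ± 0.12 (adjusted p = 2.5e-05, 6.3e-05 and 0.00011). CDK1, the kinase that cyclin B1 activates, and PTTG1, securin, were the members that rose, by 0.52 ± 0.15 and 0.68 ± 0.13 (adjusted p = 0.014 and 0.0014). When 24 h replicate 2 was left out 14 members fell, and the call of CDK1 was lost without either 24 h array (adjusted p = 0.095 and 0.058) and with arrays scaled on their medians (0.15). The CHR, an element of late cell cycle promoters searched as TTTGAA on either strand in the 250 bases before the gene start (RefSeq, GRCh38.p14), was present in 15 of the 30 promoters found for the list and in 13.6% of all 27305 promoters. Of the 15 genes that hold it, 11 fell and 1 rose.

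In the DNA replication and G1/S list of 30 genes 5 rose and 6 fell, and the median was 0.08. These shares do not exceed the 20.4% that rose and the 21.3% that fell among all genes. The falls were those of replicative helicase subunits MCM2, MCM3, MCM5 and MCM6, of POLD1, the catalytic subunit of a replicative polymerase, and of ORC1. MCM5 fell by 0.77 ± 0.16 (adjusted p = 0.0023). The rises were those of LIG1, PRIM1, POLA2 and the clamp loader subunits RFC2 and RFC4, at most 0.53 ± 0.13 for LIG1 (adjusted p = 0.0064). Without 24 h replicate 1 only 1 of the rises was called, and without 24 h replicate 2, 2 of the rises and 3 of the falls. LIG1 had an adjusted p of 0.056 without 24 h replicate 1. The call of RFC2 was also lost without any 1 of the 0 h arrays and that of ORC1 without 0 h replicate 3. With arrays scaled on their medians 1 of the rises was called.

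Of 12 G1 cyclins, their kinases and inhibitors 5 rose and 2 fell. Beside CDKN1A, the inhibitors CDKN2D and CDKN2B rose by 1.10 ± 0.15 and 0.67 ± 0.12 (adjusted p = 0.00011 and 0.00073). CDK4, a G1 kinase, fell by 0.69 ± 0.10 (adjusted p = 0.00019), and the fall was the only one called without either 24 h array, 0 h replicate 3 or 0 h replicate 4. Among 14 clustered histone genes none rose and 6 fell, and H4C3 read 13.54, 13.43, 13.36 and 13.38 at 0 h and 12.51 and 11.97 at 24 h (adjusted p = 2.9e-05), a fall of 1.19 ± 0.14. Histone genes are near-identical in sequence and their values are uncertain as single genes. Labelling started from an oligo-dT primer, so histone transcripts without a poly(A) tail may be missed. Without 24 h replicate 1, 2 of the histone genes fell.

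Most measured genes of ribosome production fell, and most ribosomal protein genes were not called. Of 36 measured genes of RNA polymerase I and the nucleolus 20 fell and 1 rose, with a median of -0.45. Among all genes 21.3% fell and 20.4% rose. BOP1, which processes the large subunit precursor, read 11.14, 11.17, 11.35 and 11.19 at 0 h and 9.60 and 9.60 at 24 h and fell by 1.61 ± 0.14 (adjusted p = 2.6e-06). NOP16 and NOP14, assembly factors of the large and small subunits, and POLR1B, the second largest subunit of RNA polymerase I, fell by 1.07 ± 0.19, 0.92 ± 0.15 and 0.96 ± 0.17 (adjusted p = 0.00064, 0.00032 and 0.00079). The falls numbered 13 without 24 h replicate 2. Of 47 measured ribosomal protein genes 39 were not called, 6 fell and 2 rose, with a median of -0.09; the p53-regulated RPS27L rose by 0.59 ± 0.11 and RPS23 fell by 1.16 ± 0.14 (adjusted p = 0.001 and 2.6e-05). Only 2 of the falls were called without 24 h replicate 1, and 3 without 0 h replicate 3; without 24 h replicate 2, 1 of the rises. Many ribosomal protein genes have processed copies elsewhere in the genome.

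Of 18 cytosolic tRNA synthetase genes 8 fell and none rose. VARS1, valyl-tRNA synthetase, read 9.9999, 10.13, 10.15 and 10.16 at 0 h and 8.69 and 8.52 at 24 h and fell by 1.50 ± 0.12 (adjusted p = 1.2e-06). The fall of VARS1 was the only one called without 24 h replicate 1, and 4 or 5 were called without 24 h replicate 2, 0 h replicate 3 or 0 h replicate 2. RN7SK, the 7SK RNA that holds the transcription elongation factor P-TEFb inactive, read 7.50, 7.17, 7.18 and 6.74 at 0 h and 11.27 and 11.16 at 24 h and rose 16.8-fold (adjusted p = 4.9e-09). Of the proteins around it, MEPCE, which caps 7SK, rose by 1.21 ± 0.12 (adjusted p = 6.6e-06), and the P-TEFb subunits CDK9 and CCNT2 fell by 0.57 ± 0.13 and 0.72 ± 0.16 (adjusted p = 0.0031 and 0.0029), the first not called without 24 h replicate 2 (adjusted p = 0.071). ELL and ELL2, elongation factors that act with P-TEFb, rose by 0.74 ± 0.14 and 0.74 ± 0.13 (adjusted p = 0.0009 and 0.00062), and LARP7, which stabilises 7SK, had a log2 fold change of -0.03 (adjusted p = 0.87). Labelling started from an oligo-dT primer, and 7SK is not polyadenylated.

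Immediate-early genes, which growth factors and stress switch on without new protein synthesis, were higher at 24 h. Of 19 measured members of the list 15 rose and none fell, with a median of 0.65. ATF3, a stress-induced transcription factor, read 9.30, 9.41, 9.47 and 9.42 at 0 h and 12.24 and 12.01 at 24 h and rose 6.63-fold (adjusted p = 2.1e-08). FOSB, a subunit of AP-1, read 7.40, 7.31, 7.68 and 7.27 at 0 h and 9.32 and 9.02 at 24 h and rose 3.39-fold (adjusted p = 2.3e-06). EGR1 and IER3, both immediate early response genes, rose 2.35- and 2.17-fold (adjusted p = 0.00016 and 9e-06). KLF6, KLF4, IER2 and EGR3 were not called (adjusted p = 0.98, 0.076, 0.11 and 0.37), and the log2 fold changes of the last 3 were 0.30, 0.38 and -0.23. EGR3 was detected on 2 of the 0 h arrays and on no 24 h array, so its value lies near background.

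Of feedback inhibitors of MAPK signaling 6 of 15 were higher and 1 lower, beside 20.4% and 21.3% of all genes. The phosphatases DUSP14, DUSP1 and DUSP6 rose by 1.64 ± 0.13, 1.37 ± 0.12 and 1.26 ± 0.15 (adjusted p = 8.5e-07, 3e-06 and 3.1e-05). SPRY2, which blocks receptor signaling to RAS, read 9.56, 9.46, 8.93 and 8.93 at 0 h and 7.88 and 8.31 at 24 h and fell by 1.12 ± 0.22 (adjusted p = 0.0012), while its relative SPRY1 rose by 0.95 ± 0.11 (adjusted p = 3.1e-05). Of 11 genes tied to the coactivator YAP and the TEAD factors, 6 rose and 1 fell, among them the matricellular CCN1 and CCN2. CCN1 read 9.24, 9.32, 9.11 and 9.64 at 0 h and 11.19 and 11.28 at 24 h, and CCN2 read 11.35, 11.66, 11.73 and 11.66 against 12.96 and 12.98. They rose 3.75- and 2.59-fold (adjusted p = 1.2e-06 and 4.9e-06).

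**Figure D3:**
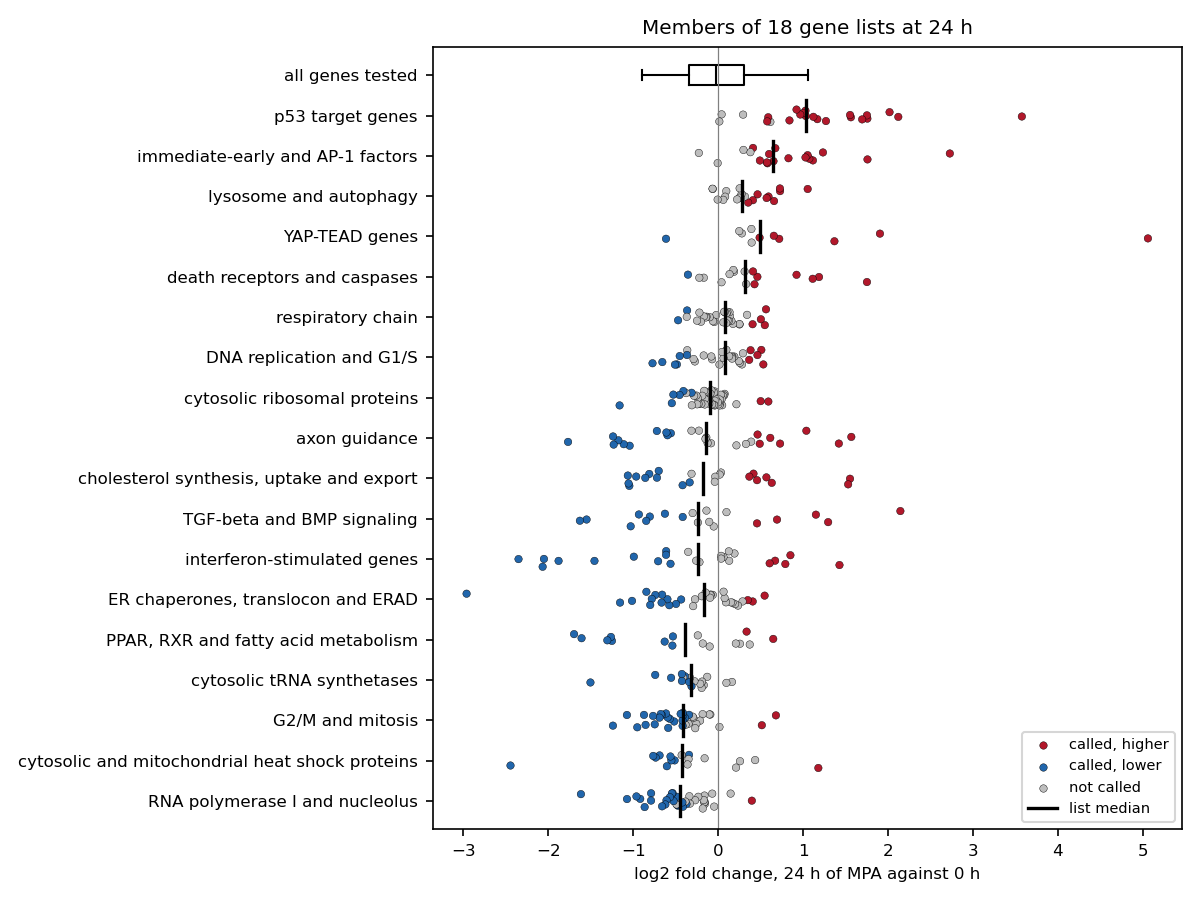
Log2 fold change at 24 h against 0 h of the measured members of 18 gene lists (points: red called and higher, blue called and lower, grey not called), with list medians as black bars and, at the top, all 10469 genes as a box from quartile to quartile with whiskers at the 5th and 95th percentiles. The p53 target list has the highest median, 1.03, and the RNA polymerase I and nucleolus list the lowest of those drawn, -0.45.

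Of 32 measured genes of folding, translocation and degradation in the endoplasmic reticulum (ER) 13 fell, 3 rose and 16 were not called, with a median of -0.17. The largest fall was that of HSPA5, which encodes BiP, the main ER chaperone and the sensor partner of the unfolded protein response. It read 10.11, 10.01, 10.14 and 10.004 at 0 h and 7.35 and 6.86 at 24 h and fell by 2.96 ± 0.15, 7.78-fold (adjusted p = 2.5e-08). XBP1, a transcription factor of the unfolded protein response, read 12.91, 12.93, 12.65 and 12.95 at 0 h and 11.67 and 11.74 at 24 h, and CANX, the lectin chaperone calnexin, read 10.22, 10.08, 10.17 and 10.16 against 9.13 and 9.17. They fell by 1.15 ± 0.14 and 1.01 ± 0.13 (adjusted p = 3.5e-05 and 4.6e-05). Of the 3 rises 1 was called without 24 h replicate 1, and none with arrays scaled on their medians.

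The unfolded protein response acts through the ER stress response element, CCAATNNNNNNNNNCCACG, in the promoters of chaperone genes. It was searched on both strands of the 250 bases before the start of each gene and was present in 6 of the 33 promoters found for the ER list and in 0.0806% of all promoters. These windows are from RefSeq (GRCh38.p14) and are read in the direction of the element, with 5 bases on each side and its fixed letters in capitals. They are shown because 5 of the 6 genes fell at 24 h.
HSPA5, chr9:125241386-125241414, minus strand: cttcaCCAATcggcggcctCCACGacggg
HSP90B1, chr12:103930211-103930239, plus strand: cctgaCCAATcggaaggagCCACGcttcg
HSP90B1, chr12:103930316-103930344, minus strand: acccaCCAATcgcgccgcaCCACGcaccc
CALR, chr19:12938379-12938407, minus strand: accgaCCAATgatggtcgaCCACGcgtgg
CANX, chr5:179698773-179698801, plus strand: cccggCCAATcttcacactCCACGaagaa
CRELD2, chr22:49918549-49918577, minus strand: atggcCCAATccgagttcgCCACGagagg
XBP1, chr22:28800598-28800626, minus strand: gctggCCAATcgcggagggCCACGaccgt
The log2 fold changes of the 6 genes were -2.96 for HSPA5, -1.15 for XBP1, -1.01 for CANX, -0.74 for HSP90B1, the ER form of HSP90, -0.49 for CRELD2, an ER stress-induced protein, and -0.29 for CALR, calreticulin. CALR was not called (adjusted p = 0.14), and CRELD2 was not called without 24 h replicate 1 (adjusted p = 0.071). The promoter of HSPA5 is given in full, with the element in capitals.
HSPA5, chr9:125241344-125241593, minus strand: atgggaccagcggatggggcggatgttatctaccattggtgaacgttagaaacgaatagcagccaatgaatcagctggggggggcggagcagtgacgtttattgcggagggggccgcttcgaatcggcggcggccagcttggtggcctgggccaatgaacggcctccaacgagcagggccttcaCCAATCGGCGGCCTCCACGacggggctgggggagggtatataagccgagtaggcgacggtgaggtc

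Cytosolic and mitochondrial heat shock proteins also fell, 9 of 17 measured, with 1 that rose and a median of -0.43. HSPA1A, the inducible HSP70, read 7.74, 7.65, 7.63 and 7.19 at 0 h and 5.11 and 5.10 at 24 h, and as neither 24 h array detected it, is given as at least 4.29-fold lower (adjusted p = 1.1e-06). Its near-identical neighbour HSPA1B had a log2 fold change of -0.43 (adjusted p = 0.33), and the probes may read both genes. HSPH1, a co-chaperone of HSP70, fell by 0.73 ± 0.12 (adjusted p = 0.00037), and HSPA4L, a relative of it, was the member that rose, by 1.18 ± 0.11 (adjusted p = 5.4e-06). In the ATF4 list of 23 genes 9 rose and 3 fell, beside 20.4% and 21.3% of all genes. DDIT3, the stress factor CHOP, read 8.10, 8.33, 8.46 and 8.31 at 0 h and 10.04 and 9.84 at 24 h and rose 3.11-fold, and PPP1R15A, which restores translation after stress, rose 2.1-fold (adjusted p = 5.9e-07 and 1.3e-05). ATF4 itself had a log2 fold change of -0.31 (adjusted p = 0.079). A dimmer probe of it, detected on all arrays of both groups, read -0.80 (adjusted p over probes = 0.0018). Another that neither 24 h array detected also fell (adjusted p over probes = 0.0031). The fall of ATF4 was called on the mean of its probes (-0.72, adjusted p = 0.00059) and with the authors' values (-0.30, adjusted p = 0.044), but not in every setting. The amino acid carriers SLC7A11 and SLC1A5 fell, the first detected on 3 of the 0 h arrays and on no 24 h array. Of the 3 falls 1 was called without 24 h replicate 2, and SLC7A11 was not (adjusted p = 0.063).

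Interferon-stimulated genes moved in both directions. Of 24 measured members 10 fell and 5 rose, with a median of -0.24. The share that rose is close to the 20.4% of all genes. The falls were led by antiviral effectors of the IFIT and OAS families. IFIT2 read 9.84, 9.89, 9.46 and 9.72 at 0 h and 7.17 and 7.59 at 24 h, IFIT3 read 8.10, 8.42, 8.44 and 8.37 against 6.36 and 6.20, and IFIT1 read 10.82, 10.95, 10.89 and 10.86 against 8.88 and 9.13. They fell 5.09-, 4.14- and 3.67-fold (adjusted p = 9.4e-07, 2.1e-06 and 3e-07), and in none did the groups overlap. OASL, an OAS-like protein, fell 4.18-fold (adjusted p = 1e-05), and OAS2, which makes the activator of the antiviral ribonuclease L and is outside the list, was at least 5.38-fold lower (adjusted p = 4.8e-08). The cytoplasmic RNA sensors IFIH1 and RIGI fell by 1.45 ± 0.19 and 0.56 ± 0.18 (adjusted p = 6.5e-05 and 0.023), and RIGI was not called without 24 h replicate 2 or 0 h replicate 4 (adjusted p = 0.22 and 0.052).

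The members that rose include the antigen presentation genes TAP1 and HLA-B, the transcription factor IRF1 and the ubiquitin-like ISG15. TAP1, a peptide transporter, rose by 1.43 ± 0.13 (adjusted p = 3.5e-06), HLA-B by 0.79 ± 0.15 (adjusted p = 0.001) and ISG15 by 0.61 ± 0.14 (adjusted p = 0.0039). IRF1 was not called without either 24 h array (adjusted p = 0.081 and 0.083). HLA class I genes are similar in sequence and the HLA-B value is uncertain. The core of the interferon-stimulated response element, searched as GAAANNGAAA on both strands of the 250 bases before the gene start, was present in 12 of the 22 promoters found for the list and in 3.07% of all promoters. Of these 12 genes 5 fell, 2 rose and 5 were not called, so genes with the letters were found on both sides. The promoters of IFIT1 and IFIT3 (RefSeq, GRCh38.p14) are shown as those of the members with the largest falls among promoters found, with the core in capitals, which is present here as its reverse complement.
IFIT1, chr10:89392373-89392622, plus strand: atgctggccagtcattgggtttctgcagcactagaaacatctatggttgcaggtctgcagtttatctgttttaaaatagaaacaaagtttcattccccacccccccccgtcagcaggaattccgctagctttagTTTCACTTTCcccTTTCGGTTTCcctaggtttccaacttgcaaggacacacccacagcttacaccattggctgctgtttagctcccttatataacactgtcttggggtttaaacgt
IFIT3, chr10:89327747-89327996, plus strand: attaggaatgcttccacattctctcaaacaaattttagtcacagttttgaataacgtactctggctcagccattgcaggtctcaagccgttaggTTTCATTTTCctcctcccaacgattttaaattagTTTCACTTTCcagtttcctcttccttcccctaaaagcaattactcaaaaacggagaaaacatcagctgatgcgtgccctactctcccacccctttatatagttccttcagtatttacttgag
Each of these promoters holds 2 copies of the core, which start 116 and 103 bases before the gene start in IFIT1 and 156 and 122 bases before it in IFIT3.

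Of 14 measured NF-kappaB and chemokine genes 5 rose and 2 fell, beside 20.4% and 21.3% of all genes. CXCL8, the chemokine interleukin-8, read 6.63, 6.78, 6.41 and 6.74 at 0 h and 8.16 and 7.88 at 24 h and rose 2.6-fold (adjusted p = 0.00013). TNFAIP3, a ubiquitin-editing inhibitor of NF-kappaB, and RELB, a subunit of the alternative pathway, rose 2.31- and 1.96-fold (adjusted p = 1.5e-05 and 5.2e-05). The subunits NFKB1 and RELA had log2 fold changes of -0.03 and -0.25 (adjusted p = 0.9 and 0.58). RELA was detected on 1 of the 0 h arrays and on no 24 h array, so its value lies near background and does not show whether it changed. Neither fall in the list was called without 24 h replicate 1, and 1 was without 0 h replicate 2 or 3.

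**Figure D4:**
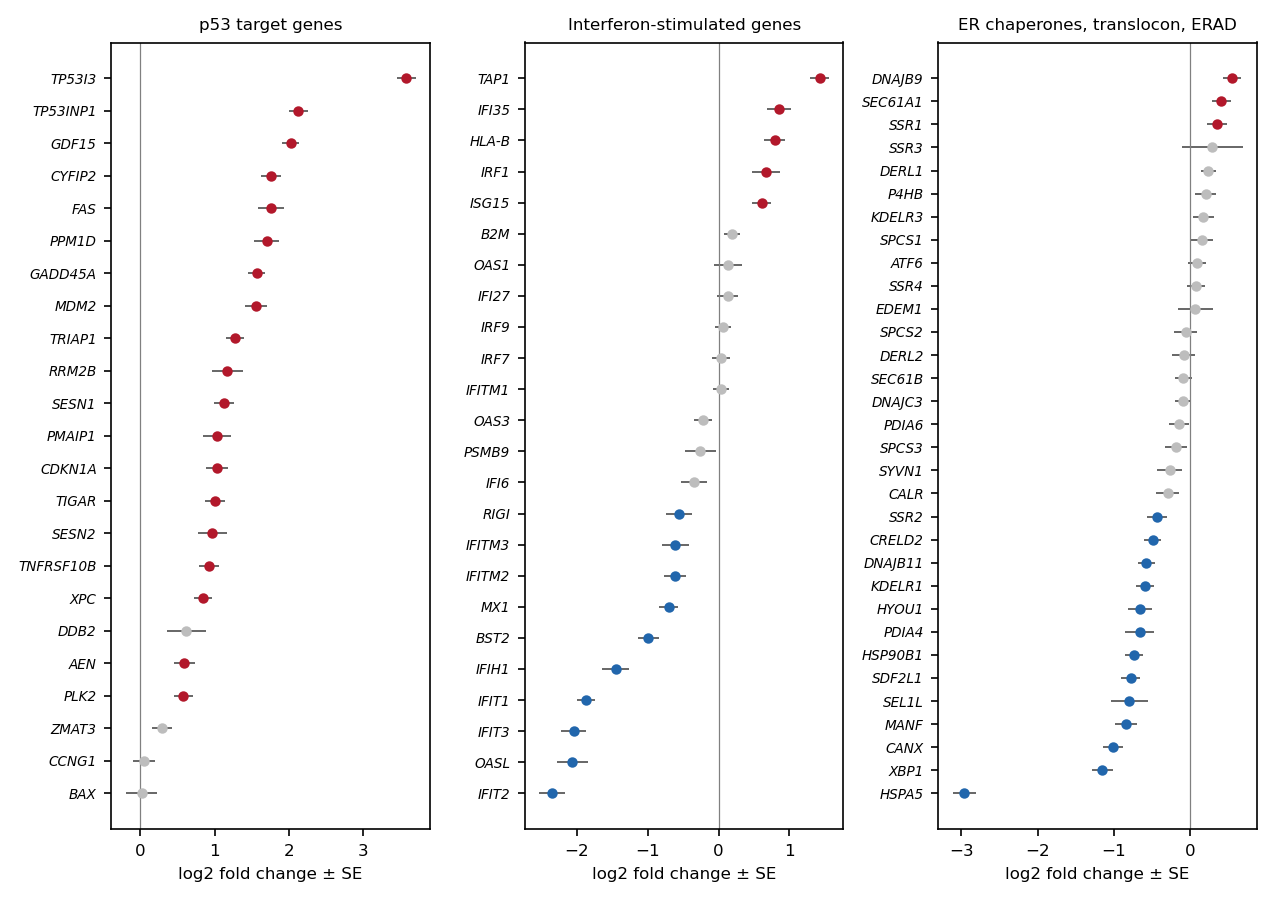
Log2 fold change at 24 h against 0 h with its standard error (bars) for the measured members of 3 lists, red where called and higher, blue where called and lower, grey where not called. All called p53 targets lie above 0; interferon-stimulated genes extend from IFIT2 at -2.35 to TAP1 at 1.43; HSPA5 at -2.96 stands apart from the other ER genes.

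Of 16 measured genes of PPAR, RXR and fatty acid metabolism 8 fell, 2 rose and 6 were not called. PPARG, the nuclear receptor that drives fat storage genes, read 10.65, 10.55, 10.32 and 10.43 at 0 h and 8.84 and 8.75 at 24 h and fell by 1.69 ± 0.12 (adjusted p = 5.1e-07). Its partner RXRA read 9.88, 9.89, 9.96 and 10.16 at 0 h and 8.24 and 8.49 at 24 h and fell by 1.61 ± 0.14 (adjusted p = 2.2e-06). The fatty acid synthesis enzymes SCD, FASN and ACACA fell 2.47-, 2.4- and 2.38-fold (adjusted p = 2.9e-05, 8.1e-05 and 4.9e-06), while the mitochondrial isoform ACACB rose by 0.65 ± 0.11 (adjusted p = 0.00058). The falls numbered 5 without 24 h replicate 1. Of the 2 rises 1 was called without 24 h replicate 1, 0 h replicate 3 or 0 h replicate 4.

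In the cholesterol list of 22 genes 10 fell and 7 rose. SQLE and MVD, enzymes of synthesis, fell by 1.06 ± 0.13 and 1.05 ± 0.16, and SREBF1 and INSIG1, a regulator of lipid synthesis and its partner in feedback, by 1.04 ± 0.12 and 0.96 ± 0.15 (adjusted p = 4.8e-05, 0.00022, 2.5e-05 and 0.00027). The exporter ABCG1 read 6.60, 6.41, 6.62 and 6.76 at 0 h and 8.03 and 8.22 at 24 h and rose 2.89-fold, and TM7SF2, a sterol reductase, rose 2.94-fold (adjusted p = 2.2e-06 and 1.2e-06). Synthesis genes were thus found among both the falls and the rises. Of the 7 rises 3 were called without 24 h replicate 1, and 3 with arrays scaled on their medians.

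Of 21 lysosome and autophagy genes 9 rose and none fell, with a median of 0.28. GAA, the lysosomal alpha-glucosidase, rose by 1.06 ± 0.18 and MAP1LC3B, a protein of autophagosome membranes, by 0.66 ± 0.12 (adjusted p = 0.00043 and 0.00061). The number that rose was 4 when arrays were scaled on their medians and 5 without 24 h replicate 1. Of 27 glycolysis and hypoxia genes 5 rose and 8 fell, beside 20.4% and 21.3% of all genes. NDRG1, a stress and differentiation gene, rose from 6.32, 6.14, 6.54 and 6.40 at 0 h to 8.38 and 8.48 at 24 h (adjusted p = 1.9e-06). Without 24 h replicate 1, 4 of the 8 falls were called, and without 24 h replicate 2, 5.

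Of 19 measured NRF2 and antioxidant genes 4 rose, 2 fell and 13 were not called. AKR1B10, an aldo-keto reductase of the small intestine, read 6.68, 6.63, 6.90 and 6.57 at 0 h and 10.31 and 10.26 at 24 h and rose 12.1-fold (adjusted p = 1.8e-09). Among the 13 members not called, NQO1, GCLM and TXN had log2 fold changes of 0.14, 0.07 and 0.19, with adjusted p of 0.37, 0.66 and 0.19. The other rises were those of AKR1C2, a relative of AKR1B10, by 0.83 ± 0.17, and of TXNRD1 and SRXN1, which reduce oxidized thioredoxin and peroxiredoxin, by 0.42 ± 0.15 and 0.42 ± 0.13 (adjusted p = 0.0017, 0.045 and 0.018). GSR, glutathione reductase, fell by 0.35 ± 0.12 (adjusted p = 0.035), and SLC7A11, the cystine carrier, was the other that fell (adjusted p = 0.004). SLC7A11 lay near background, detected on 3 of the 0 h arrays and on no 24 h array, so the size of its fall is uncertain. TXNRD1, SRXN1 and GSR were not called without either 24 h array, which left 2 of the 4 rises, and SLC7A11 was not without 24 h replicate 2. TXNRD1 also lost its call without 0 h replicate 1, 2 or 4 and GSR without 0 h replicate 2 or 4. TUBA4A, an alpha-tubulin, rose 8.05-fold and TUBB, the main beta-tubulin, fell by 0.97 ± 0.12 (adjusted p = 3.9e-07 and 3.4e-05). MT2A, the main metallothionein, read 8.09, 8.58, 8.75 and 8.69 at 0 h and 10.44 and 10.65 at 24 h and rose 4.05-fold (adjusted p = 1.7e-06). Tubulins and metallothioneins are families of near-identical genes.

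Among growth factor receptors and their ligands 6 of 23 measured genes were higher and 8 lower, beside 20.4% and 21.3% of all genes. PDGFRA, the alpha receptor of platelet-derived growth factor, read 10.88, 10.64, 10.58 and 10.35 at 0 h and 8.85 and 9.08 at 24 h and fell 3.13-fold (adjusted p = 1.1e-05). The ligands of the EGF receptor TGFA and HBEGF rose by 1.18 ± 0.14 and 1.02 ± 0.13 (adjusted p = 3.6e-05 and 6.4e-05). EGFR itself lay near the threshold, with a log2 fold change of 0.40 (adjusted p = 0.053). A dimmer probe of it read 0.48 (adjusted p over probes = 0.012). Its rise was called with the authors' values (0.37, adjusted p = 0.024) and on the mean of its probes (0.44, adjusted p = 0.0073), but not in every setting. FGFR3 rose and FGFR4 fell, with log2 fold changes of 1.11 ± 0.11 and -1.15 ± 0.16 (adjusted p = 6.8e-06 and 9.3e-05). Of 11 genes of PI3K, AKT and mTOR 5 fell and 1 rose. TSC2, an inhibitor of mTOR, fell by 1.42 ± 0.24 (adjusted p = 0.00044); without 24 h replicate 1, 3 of the list fell and without 24 h replicate 2, 2.

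The receptors and effectors of TGF-beta and BMP signaling changed in both directions. SMAD3, which carries the TGF-beta signal, read 9.66, 9.80, 9.86 and 9.60 at 0 h and 11.75 and 12.00 at 24 h and rose 4.43-fold (adjusted p = 2e-07). On the BMP side, the receptor BMPR2 read 11.68, 11.56, 11.57 and 11.76 at 0 h and 10.02 and 10.17 at 24 h, and the inhibitor SMAD6 read 8.72, 8.75, 8.52 and 8.54 against 6.97 and 7.04. They fell 2.92- and 3.09-fold (adjusted p = 5.6e-06 and 4.1e-07), and the BMP target genes ID1, ID2 and ID3 fell by 1.03 ± 0.13, 0.93 ± 0.13 and 0.80 ± 0.11 (adjusted p = 5.8e-05, 8.8e-05 and 0.00012). SMAD5, which carries the BMP signal, rose by 0.46 ± 0.17 (adjusted p = 0.0498), a call lost without either 24 h array (adjusted p = 0.34 and 0.061) and without 0 h replicate 2, 3 or 4 (0.1, 0.084 and 0.098). The list as a whole had 5 of 19 higher and 8 lower, beside 20.4% and 21.3% of all genes. TGFBR2, a TGF-beta receptor, was among those that fell, by 0.85 ± 0.13 (adjusted p = 0.00027). Of 10 Wnt target and feedback genes 5 fell and none rose, with LGR5, a stem cell receptor, at 10.07, 10.10, 10.30 and 10.52 at 0 h and 8.92 and 9.03 at 24 h (adjusted p = 2.5e-05); without 24 h replicate 1, 2 fell.

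Among 26 axon guidance genes, which also steer epithelial cells, 10 fell and 7 rose, beside 21.3% and 20.4% of all genes. PLXNA2, a semaphorin receptor, read 7.05, 7.05, 6.92 and 7.07 at 0 h and 5.45 and 5.06 at 24 h and fell 3.4-fold, with detection on 1 of the 24 h arrays, and DPYSL3, a semaphorin effector, fell 2.36-fold (adjusted p = 7.7e-07 and 5e-06). SEMA3F, a secreted semaphorin, and the ephrin EFNB1 rose 2.97- and 2.68-fold (adjusted p = 9.9e-07 and 1.7e-05). Of the 7 rises 4 were called without 24 h replicate 1. The actin cytoskeleton list did not exceed the 20.4% that rose or the 21.3% that fell among all genes. Of its 30 genes 4 rose and 6 fell, with FSCN1, the bundling protein fascin, at 8.53, 8.53, 8.62 and 8.80 at 0 h and 7.43 and 7.54 at 24 h (adjusted p = 3.1e-05). Leaving out 24 h replicate 1 kept 1 of its rises called, and without 24 h replicate 2, 2 of its rises and 3 of its falls.

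Of 19 measured genes of epithelial junctions 4 rose and 2 fell, and of 23 genes of integrins and focal adhesion 6 rose and 2 fell. These shares of rises are near the 20.4% of all genes. CEACAM1, an adhesion molecule of epithelia outside both lists, read 9.95, 9.86, 9.98 and 9.63 at 0 h and 12.62 and 12.73 at 24 h and rose 7.05-fold (adjusted p = 2.4e-08). CDH10, a type II cadherin of brain, read 6.61, 6.36, 5.66 and 6.57 at 0 h and 8.52 and 8.72 at 24 h and rose 4.99-fold (adjusted p = 6e-06), while CDH1, the epithelial cadherin, rose by 0.68 ± 0.13 (adjusted p = 0.0011). CLDN1, a tight junction claudin, rose 2.47-fold (adjusted p = 5.1e-06). ITGB2, the beta subunit of the leukocyte integrins, was not detected at 0 h and lay at least 2.76-fold higher (adjusted p = 4.8e-07), whereas of the leukocyte markers CD14, the only one measured, was detected on no 24 h array. PARVA, an adaptor of integrin adhesions, fell 3.13-fold (adjusted p = 1.4e-05) and was detected on 1 of the 24 h arrays.

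Of 18 gastrointestinal differentiation genes 7 rose and 3 fell. CCK and GAST, the gut hormones cholecystokinin and gastrin, were detected on 4 and 3 of the 0 h arrays and on both 24 h arrays. CCK read 6.25, 5.75, 6.22 and 6.10 at 0 h against 8.10 and 8.45 at 24 h, and GAST 5.42, 6.04, 5.91 and 5.94 against 7.34 and 7.77. They rose 4.58- and 3.32-fold (adjusted p = 6.1e-07 and 2.6e-05). SOX2, a transcription factor of the foregut and stomach, read 10.38, 9.98, 9.82 and 9.72 at 0 h and 8.77 and 8.52 at 24 h and fell 2.52-fold (adjusted p = 7.2e-05). A dimmer probe of SOX2 had a log2 fold change of -0.06 (adjusted p over probes = 0.89). Without 24 h replicate 1, 4 of the 7 rises were called.

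The study's text names 25 genes, of which 20 were measured here: 8 rose, 7 fell and 5 were not called. It chose them partly on these arrays, so their changes are not independent evidence. LRP8, a receptor of the LDL receptor family that binds reelin, read 10.14, 10.01, 10.03 and 10.27 at 0 h and 8.06 and 8.41 at 24 h and fell 3.68-fold (adjusted p = 8.1e-07). PRKCA, protein kinase C alpha, read 9.20, 8.97, 9.03 and 8.99 at 0 h and 6.95 and 7.35 at 24 h and fell 3.72-fold (adjusted p = 9.4e-07). CITED2, a transcriptional coregulator, and MMP1, the interstitial collagenase, rose 2.46- and 1.67-fold (adjusted p = 0.00013 and 0.0026). The study measured MMP1 as protein in the culture medium and reported that MPA reduced it. The arrays read its RNA, which rose.

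ARRB1, beta-arrestin 1, has 3 probes of similar brightness that were detected on all 6 arrays, with log2 fold changes of -0.66, -2.76 and -0.58 (adjusted p over probes = 0.0046, 9.3e-09 and 0.0068). All 3 fell, by amounts that differed between the probes. The brightest, which stands for the gene, was not called without 24 h replicate 1 (log2 fold change -0.47, adjusted p = 0.077). The 5 genes that were not called were AKT1, SRC, ITGB5, INF2 and BSG, the kinases AKT1 and SRC, integrin beta 5, a formin and the glycoprotein basigin. Their log2 fold changes were -0.40, -0.29, -0.19, 0.20 and 0.32, with adjusted p of 0.074, 0.16, 0.29, 0.24 and 0.085. For SRC and for CD147, the protein of BSG, the study reported falls of the protein, which the arrays do not measure. AKT1 and BSG lay near the threshold: 6 of the alternatives in processing called the fall of AKT1 and 4 called the rise of BSG. INF2 has 3 probes that did not move together, with log2 fold changes of -2.83, 0.20 and -0.01, the brightest being the one at 0.20 (adjusted p over probes = 4.8e-07, 0.26 and 0.97).

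With arrays scaled on their medians, the rises numbered 3 in place of 5 in the list of G1 cyclins and in that of pyrimidines and deoxynucleotides, 1 in place of 4 in the actin list, 2 in place of 4 in the NRF2 and respiratory chain lists and 0 in place of 2 among proteasome genes.

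In other groups few members were called. Of 32 respiratory chain genes 4 rose and 2 fell and the median was 0.09, and of 27 proteasome genes 2 rose and 3 fell with a median of -0.13. Of the respiratory chain falls none was called without 24 h replicate 1 and 1 without 24 h replicate 2 or 0 h replicate 1, 2 or 3, and 2 of the rises were called without 24 h replicate 2. Of the proteasome genes 1 fell without 24 h replicate 1 and 1 rose without 24 h replicate 2. Of the 5 genes that served the study as RT-PCR references, MRPL19 fell by 0.67 ± 0.14 and IPO8 by 0.45 ± 0.16 (adjusted p = 0.0018 and 0.037), and ESD, GUSB and GAPDH had log2 fold changes of -0.20, 0.32 and 0.34 (adjusted p = 0.4, 0.063 and 0.08). The call of IPO8 was lost without any single array but 0 h replicate 3. Of 10 measured genes of the MYC network 2 rose and 2 fell, shares near the 20.4% and 21.3% of all genes, and the lowest log2 fold change was -0.78. MYC had a log2 fold change of 0.13 (adjusted p = 0.46). The rises were those of its antagonists MXD4 and MXD1, by 0.91 ± 0.12 and 0.55 ± 0.14 (adjusted p = 8.3e-05 and 0.0072). MXD1 was not called without 24 h replicate 2 (log2 fold change 0.52).

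Direct contrasts between treated groups show what set 24 h apart from the other times of MPA. Against 12 h, 723 genes (6.91%) were called, 481 higher (4.59%) and 242 lower (2.31%) at 24 h. Against 48 h these were 1158 (11.1%), 685 higher (6.54%) and 473 lower (4.52%), and against 72 h 2104 (20.1%), 1099 higher (10.5%) and 1005 lower (9.6%). These counts rest on 2 arrays against 2 and moved with single arrays: 723 calls in all against 12 h became 267 without 12 h replicate 2, 272 without 24 h replicate 2, 282 without 24 h replicate 1 and 489 without 12 h replicate 1. Leaving out 1 array gave 282 to 517 calls against 48 h in place of 1158, and 1027 to 1289 against 72 h in place of 2104. With arrays scaled on their medians, the calls against 48 h were 625 higher and 98 lower, and those against 72 h 1021 higher and 294 lower.

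Higher at 24 h than at each of 0, 12, 48 and 72 h were 64 genes (0.611%), and lower than at each were 15 (0.143%). Of the 64, 14 were detected on no array of another time, and of the 15, 2 on no 24 h array. SORCS2, whose 0 h values are at background, read 5.90 and 6.84 on the 12 h arrays, 9.04 and 8.95 on the 24 h arrays, 6.73 and 6.78 after 48 h and 5.52 and 5.19 after 72 h. The 24 h arrays lay 2.63 and 2.24 log2 units above the 12 and 48 h arrays and at least 3.36 above the 72 h arrays, which did not detect it (adjusted p = 5.8e-05, 0.00032 and 2.5e-06). SULT2A1, a sulfotransferase of steroids and bile acids, read 5.83, 5.72, 6.12 and 6.04 at 0 h, 7.07 and 7.17 on the 12 h arrays, 8.89 and 9.01 on the 24 h arrays, 6.73 and 6.97 after 48 h and 6.42 and 6.35 after 72 h. It exceeded the 12, 48 and 72 h groups by 1.83, 2.10 and 2.56 (adjusted p = 3.4e-05, 1.4e-05 and 8.3e-07).

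RAB3IL1, an exchange factor of RAB3 proteins, CYP4F2, a cytochrome P450 that hydroxylates fatty acids and vitamin K, TTLL10 and TMEM40, a membrane protein, complete the 6 genes that stood out most. TTLL10 exceeded the 12 and 48 h groups by 1.52 and 1.19 log2 units. CYP4F2 was detected on the 24 h arrays alone, and RAB3IL1 and TMEM40 on these and on 1 array at 48 h, so that they passed the filter through the 24 h group. Against 12 h, where none of the 3 was detected, RAB3IL1, CYP4F2 and TMEM40 were higher by at least 1.48, 1.21 and 1.30 log2 units (adjusted p = 1.4e-06, 4.5e-05 and 0.00014). Against 48 h CYP4F2 was higher by at least 1.25, and RAB3IL1 and TMEM40 by 1.52 and 1.05 with the floor set (adjusted p = 0.00036, 3.9e-05 and 0.0062). No 0 h array detected any of these 4 genes. TTLL10 lost its call against 48 h when any one of the 24 h or 48 h arrays was left out (adjusted p 0.056 to 0.14) and its call against 12 h without 12 h replicate 2 or 24 h replicate 1 (0.090 and 0.064), and TMEM40 lost its call against 48 h without 24 h replicate 1 (0.056).

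Among the 15 genes with a low point at 24 h, TICAM2, an adaptor of Toll-like receptor 4, read 8.16, 8.16, 8.02 and 8.06 at 0 h, 7.76 and 7.72 on the 12 h arrays, 6.52 and 6.40 on the 24 h arrays, 7.31 and 7.40 after 48 h and 7.72 and 7.92 after 72 h. It lay -1.28, -0.89 and -1.36 log2 units from the 12, 48 and 72 h groups (adjusted p = 7e-05, 0.0013 and 2.8e-05). GAS6, the ligand of AXL, read 9.02 and 9.07 on the 12 h arrays, 9.08 and 9.07 after 48 h and 9.62 and 9.54 after 72 h, and was lowest at 24 h; without 24 h replicate 2 its calls against 12 and 48 h were lost (adjusted p = 0.13 and 0.087), and against 12 h also without 12 h replicate 2 (0.077). HNRNPL, a splicing factor, the small nucleolar RNA SNORD38A, HAGHL and the transcription factor GATA6 were the other 4 of the 6 that stood out most. Each of these 4 lost at least 1 of its calls between treated times without 24 h replicate 2, and HNRNPL and SNORD38A then also lost their call against 0 h (adjusted p = 0.12 and 0.052). HAGHL and GATA6 were detected on no 24 h array, and lay at least 0.48 and 0.15 log2 units below the 12 h group. With the authors' values neither was called against 12 h (log2 difference -0.33 and -0.27, adjusted p = 0.10 and 0.18), and GATA6 was also not called against 12 h without any single 12 h or 24 h array (0.15 to 0.19). HNRNPL read 9.61, 8.52, 8.64 and 8.83 at 0 h and 7.98 and 7.06 at 24 h, so that its replicates were far apart. The oligo-dT primer of the labelling may miss SNORD38A if it lacks a poly(A) tail.

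**Figure D5:**
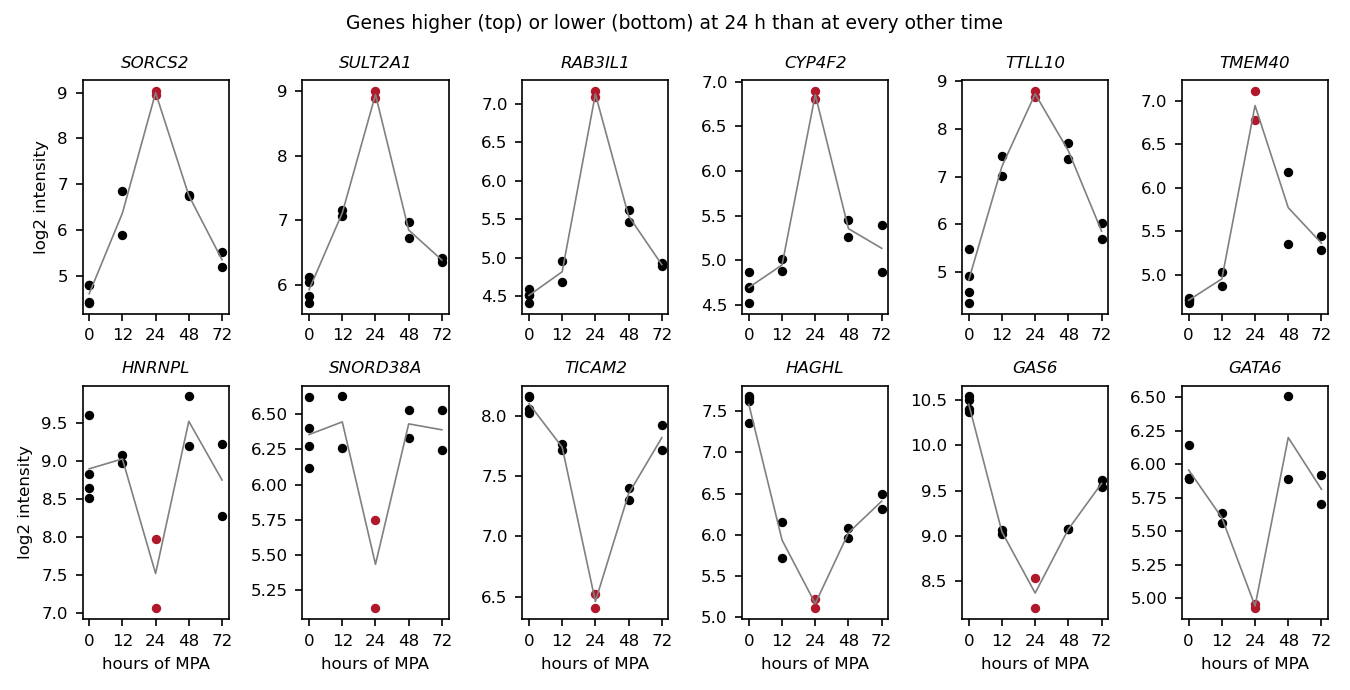
Log2 intensity on all 12 arrays (points; 24 h in red) against hours of MPA for the 6 genes that most exceeded every other time at 24 h (top) and the 6 that lay most below it (bottom), with group means joined by lines; each panel has its own vertical scale and the hours are drawn evenly spaced. SORCS2 and SULT2A1 come to nearly 9 at 24 h, and HNRNPL and SNORD38A have 24 h points that lie far apart.

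Most of the 30 DNA replication genes were not called against 12 h, and most were not called against 48 h. None was higher at 24 h than at 12 h and 6 were lower, while 11 were higher and none lower than at 48 h. The median log2 difference was -0.19 against 12 h and 0.35 against 48 h. As a background, calls across all genes came to 4.59% up and 2.31% down relative to 12 h. Relative to 48 h they came to 6.54% up and 4.52% down. MCM5 was -1.23 from 12 h (adjusted p = 0.0021) and 0.27 from 48 h (adjusted p = 0.37). Leaving out 1 array gave 1 to 3 replication genes lower than at 12 h and 2 to 5 higher than at 48 h. Of the p53 targets, 3 were higher at 24 h than at 12 h (TP53I3, GDF15 and CYFIP2, by 1.14, 0.60 and 0.98) and none was called between 24 and 48 h. GDF15 was not called against 12 h without 12 h replicate 2, 24 h replicate 1 or 24 h replicate 2 (adjusted p = 0.11, 0.066 and 0.12).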

How the data were processed

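RNA of 12 AGS samples was measured on Illumina HumanHT-12 bead arrays, and the authors deposited probe intensities without normalization or background subtraction. As deposited, each intensity comes with a detection score, a fraction from 0 to 1, and the detection p was taken as 1 minus this score; scanner software is not stated. The authors also deposited normalized log2 values, for which their processing notes name lumi. The number of arrays limits the precision.

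Background was estimated through the detection p and removed by normexp in limma 3.58.1 (R 4.3.3) with an offset of 16, followed by log2 and quantile normalization. A probe was kept if its detection p was below 0.01 on 2 or more arrays (13772 probes), and the brightest kept probe stood for its gene. Of the 48803 probes 28098 have 1 gene in the platform annotation, 13 several and 20692 none. The gene identifier gave a current symbol for 28059, and 39 retained the symbol of the annotation, which is of an earlier array version than the study names. Promoters came from RefSeq (GRCh38.p14).

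A limma model with 5 time groups over all 12 arrays gave each contrast, with Benjamini-Hochberg adjustment over the 10469 genes. The code was tested on simulated data. Where the dimmer group had no array with detection, the fold is a bound against the lowest detected signal of its arrays. Named genes are the 15 largest changes each way, the 4 largest of each list, genes that the study names, and 6 genes each way that stood apart from every other time, and further members are named to show what a list holds. The members and lists were chosen with earlier results of these data known. Alternative settings concerned the input (the authors' log2 values, uncorrected intensities, a larger offset), the scaling, the probe filter and probe choice, the model (array weights, a mean-variance trend, fewer groups, a replicate block), a stricter threshold, and each array left out in turn.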

Additional observations from a re-analysis of the deposited data

Results flagged for a closer look

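On 11 of the 239 genes checked, the 4 arrays at 0 h held 1 value far from the other 3, with a gap to the nearest array that was a larger share of the group's range than Dixon's 95% critical value. Chance gives such a gap in about 1 in 20 groups. The gap was 0.974 of the range for COL1A1, where 0 h replicate 1 read 6.44 and the others 6.71 to 6.72, and 0.954 for GATA6, where 0 h replicate 3 read 6.14 and the others 5.89 to 5.90. It was 0.853 for CBS, 0.896 for KLF4, 0.894 for RFC4 and 0.899 for RPS23, each lowest on 0 h replicate 4. It was 0.831 for CCN2 and 0.895 for LNCEGFL7OS, lowest on 0 h replicate 1. It was 0.85 for PLXNA2 and 0.89 for XBP1, lowest on 0 h replicate 3, and 0.843 for IER2, highest on that array.

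Genes whose change from 0 h differed between 24 h and 12 h by the direct contrast were SORCS2 (2.63 log2 units higher at 24 h), SULT2A1 (1.83) and TTLL10 (1.52). RAB3IL1, TMEM40 and CYP4F2, which no 12 h array detected, were at least 1.48, 1.30 and 1.21 log2 units higher. The differences were -1.51 for HNRNPL, -1.28 for TICAM2, -1.01 for SNORD38A and -0.67 for GAS6. HAGHL and GATA6, which no 24 h array detected, were at least 0.48 and 0.15 log2 units lower. These 12 genes were picked for standing apart from every other time.

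Of 2694 detected probes with no gene name in the annotation, 966 (35.9%) were called at 24 h against 0 h, 522 higher and 444 lower, and 271 changed at least 2-fold.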

How the results depend on the processing

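In each setting the direction and the call at 24 h against 0 h held for 218 to 236 of the 239 named genes (196 where only probes detected on all arrays were kept, which drops other genes). Genes called and changed at least 2-fold, 996 of them, were 521 (334 higher, 187 lower) with the authors' values and 495 (323 and 172) without background correction. With arrays scaled on their medians, calls against 0 h were 3614 (1470 higher, 2144 lower) in place of 4359, against 12 h 374 (213 and 161), against 48 h 723 (625 and 98, for 685 and 473) and against 72 h 1315 (1021 and 294, for 1099 and 1005), and the median of all genes moved to -0.10, -0.10, 0.13 and 0.12. Median scaling over detected probes, chosen after seeing the data, called 4284 genes against 0 h (2292 and 1992). With only the groups compared, 443 genes were called against 12 h and 660 against 48 h. At an adjusted p of 0.01 the counts against 0, 12, 48 and 72 h were 2852, 262, 316 and 948. Leaving out 1 array gave 2905 to 4150 calls against 0 h, 987 to 1052 of at least 2-fold, and 267 to 489, 282 to 517 and 1027 to 1289 against 12, 48 and 72 h; the fewer arrays are part of each setting. INF2 went from 0.20 to -0.88 on the mean of its probes, which read -2.83, 0.20 and -0.01. The replicate block gave 3565 calls against 0 h (1801 higher, 1764 lower), 1000 of at least 2-fold, and 632, 981 and 1936 against 12, 48 and 72 h. Deviations of arrays with the same replicate number correlated between -0.14 and 0.15, so the number alone links them. No cause of the differences between settings was tested beyond the arrays and genes each setting leaves.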
